A study of Mus musculus with 25 samples.

Results

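Elastic fibre and matricellular genes encode secreted proteins that give the matrix around cells its recoil or tune how cells hold on to it. The 10 genes described here were chosen by symbol: Eln, Fbn1, Fbln5, Lox, Fn1, Postn, Tnc, Smoc2, Sparc and Thbs1. Of these, 8 had a probe set that names a single gene, among 17097 such genes on the array. Fbn1 and Thbs1 were not analysed here. Where a gene had several probe sets, the brightest on average across the 25 arrays stood for it, and all 8 were among the 11968 genes left for testing after the dimmest genes were removed.

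The study followed the translated genes of podocytes, the epithelial cells of the glomerular filter, as mice grow and age, with and without a point mutation in the actin crosslinker Actn4. Every mouse carried the transgene Tg:Col1a1-eGFPL10a, a ribosomal protein tagged with green fluorescent protein and driven by a collagen 1α1 promoter and enhancer element. Tagged ribosomes were pulled down from kidney (translating ribosome affinity purification), so the values describe ribosome-bound RNA of whichever cells made the tag, and not of podocytes by morphology. The strain was given as C57/129sv and the sex as unknown. Mice without the mutation (WT) gave 4 arrays of stage P14 (2 weeks), 5 of stage P35 (5 weeks) and 4 of stage P300 (44 weeks), and mice from the cross with the Actn4 tm1.1Plk line (KI) gave 4 arrays at each age. The number of mutant alleles per KI mouse and whether each array came from its own animal are not given in the sources used here, so the p-values measure the spread between arrays. Actn4 itself was not analysed here, and the genotype labels were not checked on it. All values are log2 array signals, and a gene is said to have risen or fallen only where the limma test gave a Benjamini-Hochberg adjusted p under 0.05 over the 11968 genes.

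An elastic fibre forms when tropoelastin, the product of Eln, is laid on fibrillin microfibrils with the help of fibulin-5 (Fbln5) and is then crosslinked by lysyl oxidase (Lox). Fibronectin (Fn1) is the scaffold on which many of these proteins first assemble. Matricellular proteins such as periostin (Postn), tenascin-C (Tnc), SMOC2 and SPARC bind collagens, growth factors and integrins more than they bear load, and most are known for high expression in growing or injured tissue. In the glomerulus such proteins are usually ascribed to mesangial and other stromal cells, while podocytes are known to make SPARC.

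The podocyte label was checked against the defining markers. The mean of 11 podocyte markers ran from 11.31 to 12.01 over the 25 arrays. Wt1, a podocyte transcription factor, ran from 11.94 to 12.54, and Podxl, the main sialoprotein of the podocyte surface, from 12.53 to 13.00. Marker means of other cells were also well above the dim limit of 4.60. The mean of 11 proximal tubule markers ran from 8.65 to 10.96. That of 11 fibroblast markers ran from 6.60 to 9.12 and that of 10 mesangial and smooth muscle markers from 7.49 to 9.24. Col1a1, whose promoter drives the tag, lay between 6.41 and 11.90. The medians of the arrays lay between 4.82 and 4.99.

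The 250 bases before the start site of 4 measured genes are shown, because Postn fell most of them with age, Tnc and Fbln5 fell less and Sparc did not pass the test. The windows are those of RefSeq (GRCm38.p6), and for a gene with more than 1 start the window with more motif matches is shown. Capitals mark matches on either strand of the core promoter motif TATAAA, the AP-1 motif TGANTCA and the SMAD core motif CAGACA; these motifs do not overlap one another in the windows.
Postn, chr3:54360857-54361106, plus strand: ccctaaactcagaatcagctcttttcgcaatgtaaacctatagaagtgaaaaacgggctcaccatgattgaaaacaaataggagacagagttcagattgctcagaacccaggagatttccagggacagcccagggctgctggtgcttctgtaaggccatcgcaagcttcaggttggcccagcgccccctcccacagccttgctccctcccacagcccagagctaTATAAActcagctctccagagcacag
Tnc, chr4:64046937-64047186, minus strand: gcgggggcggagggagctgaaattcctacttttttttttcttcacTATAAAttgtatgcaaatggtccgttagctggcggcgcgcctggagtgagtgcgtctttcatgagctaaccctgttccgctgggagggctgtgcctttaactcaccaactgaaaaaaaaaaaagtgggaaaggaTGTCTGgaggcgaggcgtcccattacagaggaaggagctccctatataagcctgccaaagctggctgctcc
Fbln5, chr12:101818485-101818734, minus strand: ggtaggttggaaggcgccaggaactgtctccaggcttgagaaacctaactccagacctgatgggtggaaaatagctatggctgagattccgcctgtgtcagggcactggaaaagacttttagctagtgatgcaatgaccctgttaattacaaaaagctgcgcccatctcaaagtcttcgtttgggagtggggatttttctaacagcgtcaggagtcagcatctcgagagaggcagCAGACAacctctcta
Sparc, chr11:55420081-55420330, minus strand: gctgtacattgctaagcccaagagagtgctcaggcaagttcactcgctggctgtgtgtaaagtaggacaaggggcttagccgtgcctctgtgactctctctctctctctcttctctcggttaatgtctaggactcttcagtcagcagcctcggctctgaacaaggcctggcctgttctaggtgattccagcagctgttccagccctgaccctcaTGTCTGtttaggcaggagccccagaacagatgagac
The Postn window has TATAAA at position -26 from the start site. The Tnc window has TATAAA at -205 and CAGACA, on the opposite strand, at -71. Fbln5 has CAGACA at -15, and Sparc has it on the opposite strand at -36. In the 50 bases after the start, not shown, Sparc has a second CAGACA at position 15 and Tnc has one at 40. TGANTCA was in none of these windows. The other Postn window and the other Fbln5 window held none of these motifs, and the other Tnc window held TATAAA at -126 and CAGACA at 9. Among 32851 windows of 300 bases, 13.6% held TATAAA, 7.8% TGANTCA and 21.0% CAGACA. Windows shown for genes with more than 1 start were chosen by their matches, so these shares are not a like comparison for them.

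The elastic fibre genes were highest in the youngest mice. In WT, Eln read 10.79, 10.23, 9.87 and 10.26 in the 2-week arrays, 8.26, 7.41, 7.15, 7.18 and 7.90 in the 5-week arrays, and 6.35, 6.14, 6.01 and 6.05 in the 44-week arrays. In KI it read 9.92, 10.04, 10.19 and 9.22 at 2 weeks, 7.74, 7.25, 7.89 and 8.58 at 5 weeks, then 6.23, 5.91, 5.82 and 6.54 at 44 weeks. No array of one age reached the range of another age, in either genotype or between them, whereas WT and KI overlapped at every age. Fewer cells that translate a gene and less ribosome-bound RNA per cell cannot be told apart in such bulk samples.

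For Fbln5 the WT arrays read 11.93, 11.78, 11.17 and 11.47 at 2 weeks, 11.16, 9.85, 9.65, 10.11 and 11.12 at 5 weeks, then 10.11, 9.90, 8.43 and 10.04 at 44 weeks. At 5 weeks WT arrays 6 and 10 were thus just under the lowest 2-week array, and arrays 7, 8 and 9 were close to the higher 44-week ones. In KI, Fbln5 was tighter, from 11.26 to 11.56 at 2 weeks, 10.72 to 11.16 at 5 weeks and 9.57 to 10.01 at 44 weeks, with no overlap between ages. The WT mean of Lox was 8.79 ± 0.82 (SD, n = 4) in the 2-week mice, 7.20 ± 0.36 (n = 5) in the 5-week mice and 6.04 ± 0.60 (n = 4) in the 44-week mice. Its KI mean, over 4 arrays each time, was 8.18 ± 0.28, then 6.57 ± 0.60, then 6.48 ± 0.32. The only neighbours in its order of group means whose arrays did not overlap were KI at 2 weeks and WT at 5 weeks.

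Fn1, the scaffold protein, showed the same split within WT at 5 weeks as Fbln5. Its WT arrays read 9.98, 10.32, 9.12 and 9.12 at 2 weeks, 8.23, 6.67, 6.25, 6.82 and 8.13 at 5 weeks, then 7.00, 6.23, 6.08 and 6.44 at 44 weeks. The KI arrays read 9.32, 9.09, 9.28 and 8.53 at 2 weeks, 8.12, 7.96, 8.16 and 7.82 at 5 weeks, then 7.06, 6.29, 6.44 and 6.76 at 44 weeks. WT arrays 6 and 10 lay within or just above the KI range at 5 weeks, and arrays 7, 8 and 9 lay below it.

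Among the matricellular genes, Postn, the gene of periostin, which links collagen to integrins, went from well above to near the limit of dim genes. It read 9.00, 10.58, 8.82 and 8.52 in WT at 2 weeks, 7.29, 5.21, 5.25, 5.54 and 6.03 at 5 weeks, then 5.05, 5.15, 4.58 and 4.67 at 44 weeks. In KI it read 8.44, 8.82, 8.79 and 7.26 at 2 weeks, 6.15, 5.87, 6.88 and 6.25 at 5 weeks, then 4.79, 4.84, 4.45 and 5.48 at 44 weeks. Ages did not overlap within a genotype. At 44 weeks 1 array of each genotype lay under the dim limit of 4.60.

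Smoc2, a calcium-binding relative of SPARC, varied more between arrays of one group. The WT arrays read 9.83, 10.98, 9.69 and 8.91 at 2 weeks, 6.90, 6.10, 5.26, 7.22 and 7.88 at 5 weeks, then 4.64, 6.42, 4.82 and 5.47 at 44 weeks. Over 4 KI arrays of each age the mean and SD were 9.26 ± 0.48, then 6.76 ± 0.85, then 5.52 ± 0.52. The 2-week arrays stood clear of all later ones, whereas the 5-week and 44-week arrays overlapped in both genotypes. Tnc, the gene of tenascin-C, a hexameric anti-adhesive glycoprotein, fell over a smaller span. Its WT mean went from 8.35 ± 0.43 (SD, n = 4) through 7.23 ± 0.49 (n = 5) to 6.27 ± 0.76 (n = 4), and its KI mean from 7.99 ± 0.35 through 6.81 ± 0.84 to 6.54 ± 0.38 (4 arrays per age). All neighbouring groups in its order of means overlapped.

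Sparc, which encodes a collagen-binding glycoprotein, stood apart from the other 7 in its spread. Its 25 arrays ran only from 12.42 to 12.84, and its group means from 12.51 (KI at 44 weeks) to 12.74 (WT at 5 weeks). It lay between percentiles 99.65 and 99.92 of its array, close to the highest values on the scale. The other 7 moved over wide parts of the array's distribution, Postn for instance from percentile 43.1 to 94.9. The plot of signals by group shows these patterns gene by gene.

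**Figure D1:**
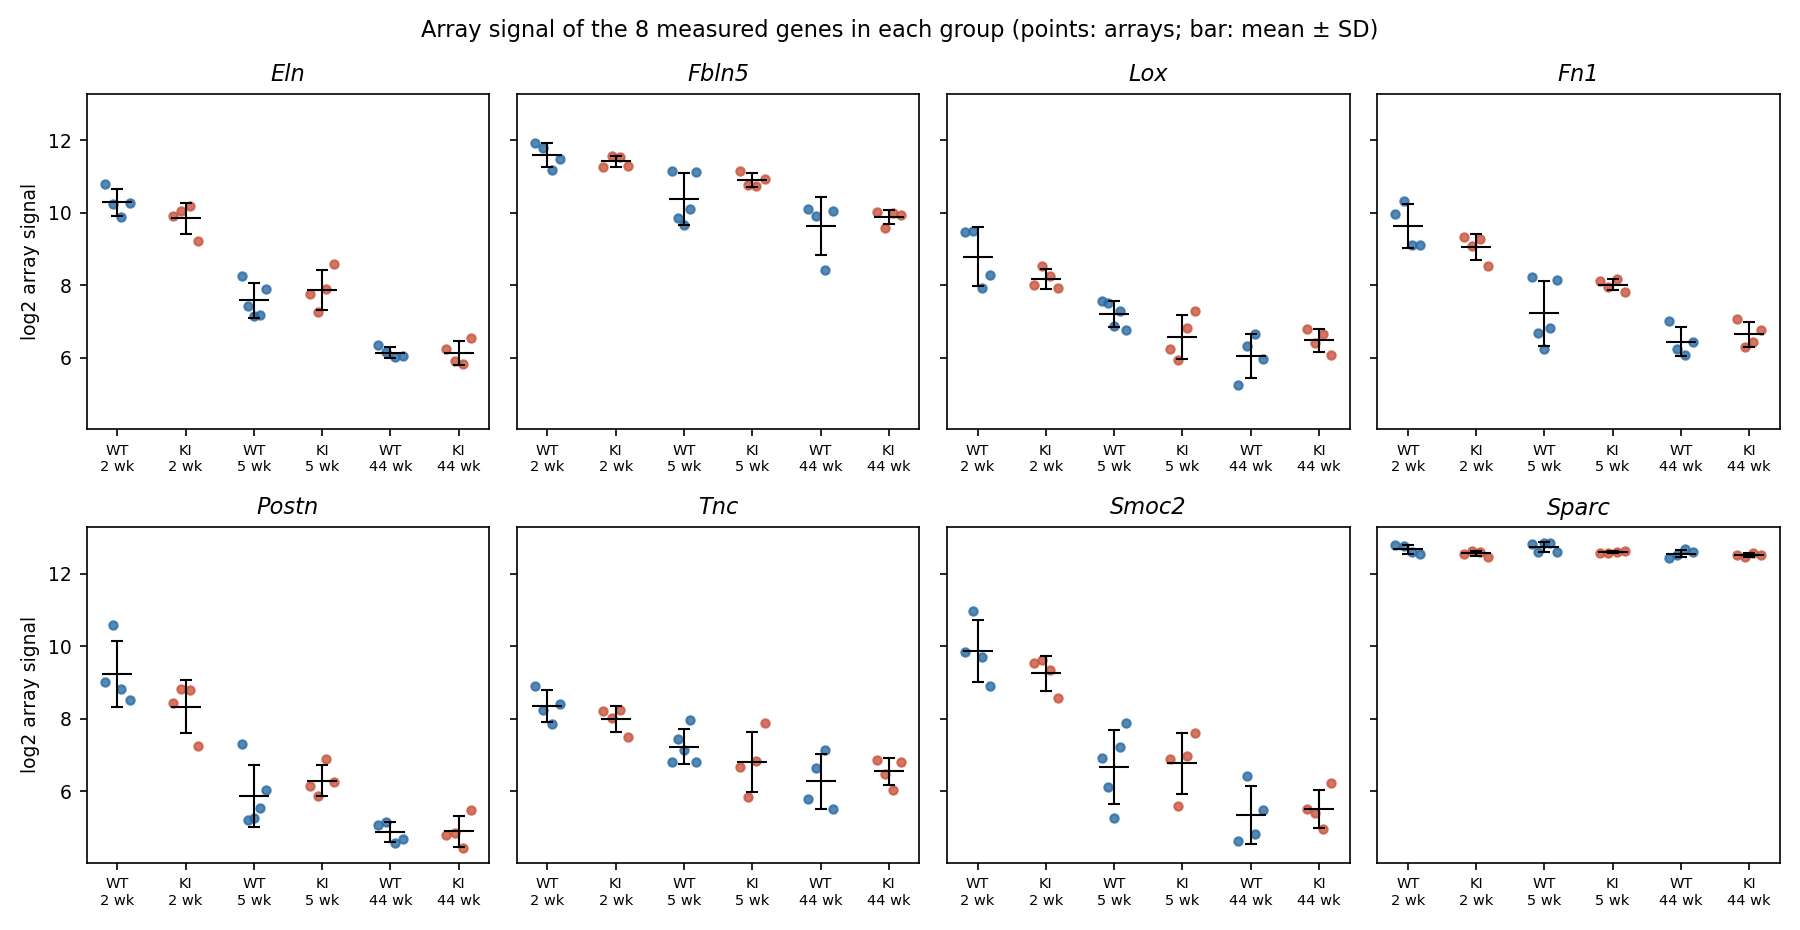
Log2 array signal of the 8 measured genes (vertical axis) in the 6 groups (horizontal axis: WT blue, KI red, at 2, 5 and 44 weeks); each point is an array and bars give mean ± SD. The panels are read one by one, since probe sets differ in brightness: 7 genes step down with age, Eln in WT from 10.29 to 6.14, while Sparc stays between 12.42 and 12.84.

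From 2 to 5 weeks in WT, 7 of the 8 genes fell, and Sparc did not pass the test. In that comparison 21.7% of all genes tested fell and 12.2% rose. Their total, 4053 genes, dropped to 991 without WT 5-week arrays 7, 8 and 9. That omission leaves arrays 6 and 10 as the only WT arrays at 5 weeks. The part of the smaller group in the drop was not tested. Postn fell by 3.37 ± 0.42 (log2, SE), a 10.3-fold drop (limma adjusted p = 1.42e-05), and Smoc2 fell by 3.18 ± 0.50 (adjusted p = 9.22e-05). Eln fell by 2.71 ± 0.26, or 6.54-fold (adjusted p = 1.95e-06), and Fn1 fell by 2.41 ± 0.35 (adjusted p = 4.61e-05). Lox differed by -1.59, Fbln5 by -1.21 and Tnc by -1.11, and all passed. Sparc differed by 0.06, with a 95% interval from -0.10 to 0.23. The median of the 8 was -2.00, against -0.06 over all genes. Without WT 2-week array 1 the Tnc call was lost (-0.93, adjusted p = 0.0684), and without WT 5-week arrays 7, 8 and 9 together the Fbln5 call was lost (-0.45, adjusted p = 0.414) while the other 6 held.

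From 5 to 44 weeks in WT only Eln and Lox fell, where 8.85% of all genes fell and 11.3% rose. The total over all genes, 2408, dropped to 851 without WT 5-week arrays 7, 8 and 9, with arrays 6 and 10 left in that group. Eln fell by 1.44 ± 0.26 (adjusted p = 0.000897) and Lox fell by 1.16 ± 0.33 (adjusted p = 0.0185) in the limma fit. The other 6 differed by between -1.34 (Smoc2, adjusted p = 0.0606) and -0.19 (Sparc, adjusted p = 0.105), and at an unadjusted p under 0.05 all 8 would have passed. The count rested on single arrays. Leaving out WT 5-week array 8 added Fbln5, Smoc2 and Fn1 (-0.94, -1.69 and -1.02; 5 genes in all), and leaving out WT 5-week array 10 added Sparc and Tnc (-0.22 and -1.07). Smoc2 (-1.70) passed without WT 44-week array 16 and Tnc (-1.26) without array 17, and without array 15 the Lox call was lost (-0.89, adjusted p = 0.0797). With WT 5-week arrays 7, 8 and 9 left out together, Fn1 (-1.74), Fbln5 (-1.52), Smoc2 (-2.06) and Postn (-1.80) passed beside Eln, and Lox did not (-1.12, adjusted p = 0.136).

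Over the whole span from 2 to 44 weeks in WT, 7 of the 8 genes fell, where 18.0% of all genes fell and 13.6% rose. Smoc2 fell by 4.52 ± 0.52 (22.9-fold, adjusted p = 2.16e-06 by limma), Postn fell by 4.36 ± 0.44 (20.6-fold, adjusted p = 5.06e-07) and Eln fell by 4.15 ± 0.28 (17.8-fold, adjusted p = 1.39e-09). Counted from the largest fall among the 11968 genes, these were numbers 3, 4 and 8. Fn1 followed at -3.19 (number 35), Lox at -2.74 (number 76), Tnc at -2.08 (number 183) and Fbln5 at -1.97 (number 212). For these 7 genes the 2-week and 44-week arrays did not overlap. The share of all genes without such overlap was not counted, so this does not set the 7 apart. Sparc differed by -0.12, with a 95% interval from -0.30 to 0.05.

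The KI mice went through the same steps in a partly different order of calls. From 2 to 5 weeks 5 of the 8 genes fell, where 8.29% of all genes fell and 5.40% rose. Smoc2 fell by 2.49 ± 0.52 (limma adjusted p = 0.00338), Postn fell by 2.04 ± 0.44 (adjusted p = 0.00421) and Eln fell by 1.98 ± 0.28 (adjusted p = 0.000136). Lox differed by -1.60 and Tnc by -1.19, and both passed. Fn1 differed by -1.04 ± 0.36 (adjusted p = 0.0609) and Fbln5 by -0.52 ± 0.33 (adjusted p = 0.321), although the arrays of the ages did not overlap for either. The Tnc call was lost without any one of KI 2-week arrays 19, 20 and 21 or KI 5-week arrays 23, 24 and 25 (from -1.19 to -0.86, adjusted p from 0.0776 to 0.157), and Fn1 passed without KI 2-week array 22 (-1.21, adjusted p = 0.0452).

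From 5 to 44 weeks in KI, 4 genes fell, where 8.64% of all genes fell and 8.11% rose. Eln fell by 1.74 ± 0.28 (adjusted p = 0.000416 by limma), Postn fell by 1.40 ± 0.44 (adjusted p = 0.0339), Fn1 fell by 1.38 ± 0.36 (adjusted p = 0.0138) and Fbln5 fell by 1.01 ± 0.33 (adjusted p = 0.0387). Lox differed by -0.10 here, with a 95% interval from -0.82 to 0.63. The Fbln5 call was lost without any one of the 8 arrays (-1.07 to -0.91), and the Postn call without KI 5-week array 23, 25 or 26 or KI 44-week array 31, 32 or 33 (-1.45 to -1.20), so the count then ran from 2 to 4. Smoc2 passed without KI 5-week array 24 (-1.64). Over the whole span from 2 to 44 weeks in KI the same 7 genes as in WT fell, where 15.9% of all genes fell and 14.3% rose. The differences were -3.74 for Smoc2, -3.71 for Eln, -3.44 for Postn, -2.41 for Fn1, -1.70 for Lox, -1.53 for Fbln5 and -1.45 for Tnc (limma adjusted p from 1.28e-08 to 0.00606).

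**Figure D2:**
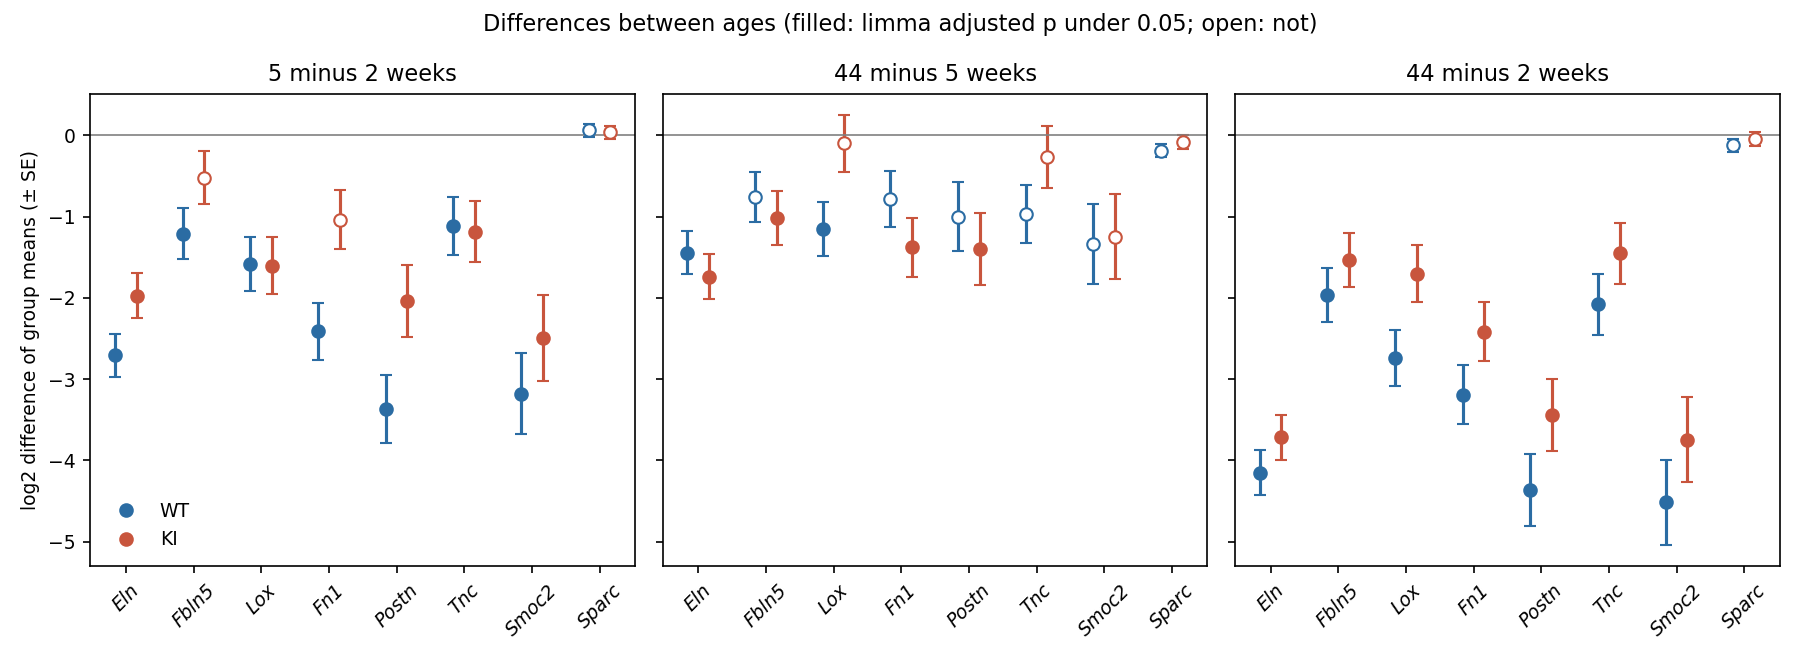
Log2 difference between ages ± SE (vertical axis) for each gene (horizontal axis), in WT (blue) and KI (red), for 5 minus 2, 44 minus 5 and 44 minus 2 weeks; filled points had a limma adjusted p under 0.05. The 44 minus 2 week differences reach -4.52 for Smoc2 in WT, and Sparc lies near 0 throughout.

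None of the 8 genes passed the test between KI and WT at any age. At 2 weeks all 8 differences lay below 0, none passed limma, and none reached an unadjusted p of 0.05; of all genes 0% passed there. The one with the lowest p was Postn, at -0.90 ± 0.44 (95% interval -1.82 to 0.02, adjusted p = 0.893). At 5 weeks 22.0% of all genes passed but none of the 8, with 1 at an unadjusted p under 0.05. That share, 2638 genes, changed with the arrays used: 1386 genes passed without WT array 7, 4077 without WT array 10 and 1 without WT arrays 7, 8 and 9. The last of these fits has only arrays 6 and 10 for WT at 5 weeks, and the part of its fewer arrays was not tested. The gene at an unadjusted p under 0.05 was Fn1, at 8.02 ± 0.16 (SD, n = 4) in KI and 7.22 ± 0.90 (n = 5) in WT, a difference of 0.80 ± 0.35 (95% interval 0.08 to 1.51, limma adjusted p = 0.0978). Fn1 passed without WT 5-week array 6 (1.05, adjusted p = 0.0299) or array 10 (1.02, adjusted p = 0.0245), and stood at -0.16 ± 0.32 when arrays 7, 8 and 9 were left out together. Lox went the other way at 5 weeks, by -0.63 ± 0.33 (adjusted p = 0.171).

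At 44 weeks the differences of the 8 genes lay between -0.04 (Sparc) and 0.43 (Lox), none passed limma at an adjusted or unadjusted p under 0.05, and 0.0251% of all genes passed. For Eln the 95% interval of the difference at 44 weeks was -0.58 to 0.56, and for Smoc2 it was -0.91 to 1.26. These intervals rest on 4 arrays a group and on a spread pooled over all 25 arrays. Averaged over the 3 ages, 5.32% of all genes passed and none of the 8 did, also without adjustment. Sparc came nearest, at -0.10 ± 0.05 (95% interval -0.20 to 0.00, adjusted p = 0.202 by limma). On its second probe set KI lay above WT at 5 weeks (12.38 against 12.14).

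**Figure D3:**
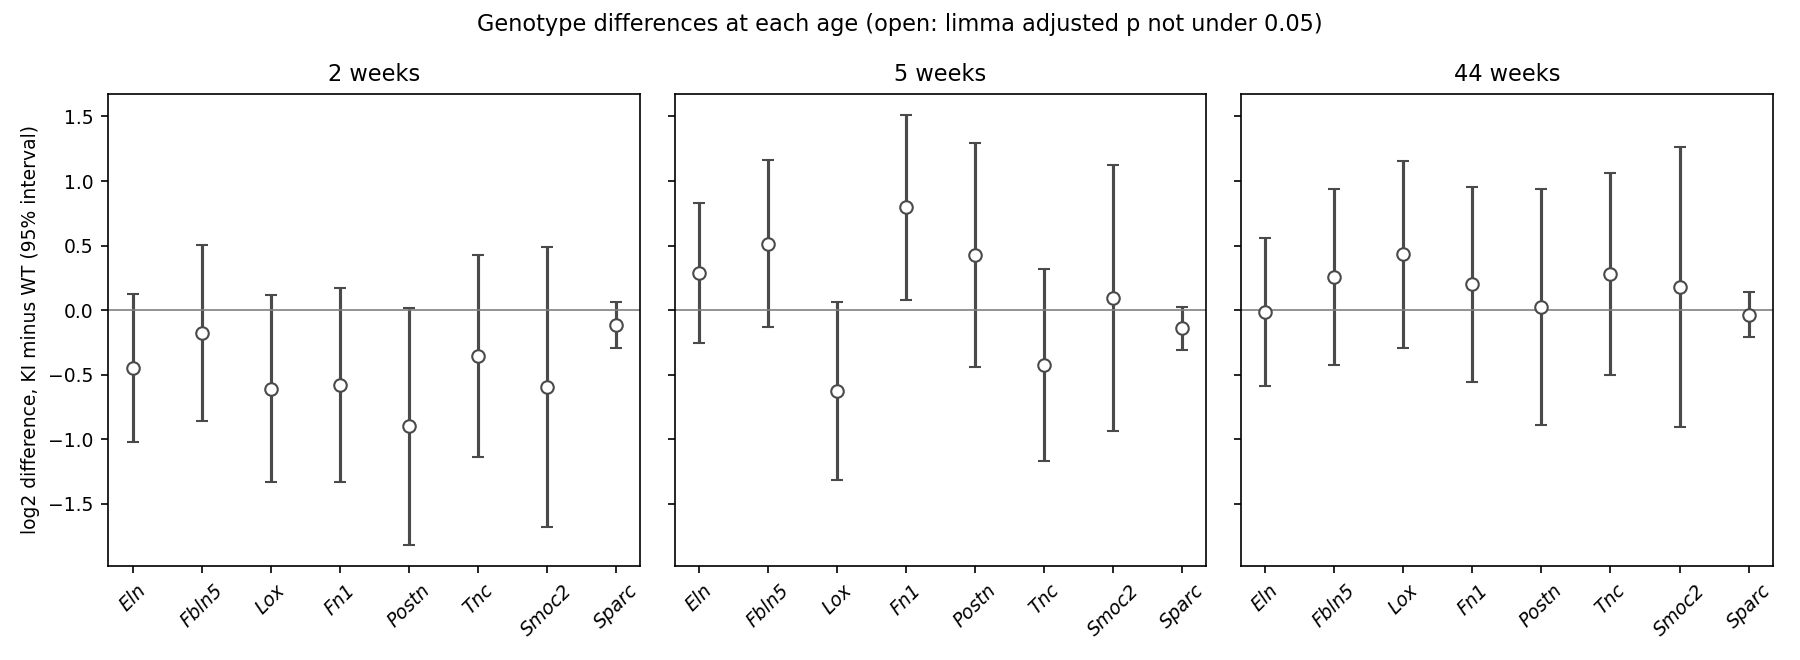
Log2 difference KI minus WT (vertical axis) with its 95% interval for each gene (horizontal axis) at 2, 5 and 44 weeks; open points had a limma adjusted p of 0.05 or more. All points are open, and the interval of Fn1 at 5 weeks, 0.08 to 1.51, is the one that leaves out 0 before adjustment.

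Whether the genotype difference changed with age was tested as an interaction. None of the 8 genes passed limma for 5 against 2 weeks, where 0.0251% of all genes did and 2 of the 8 had an unadjusted p under 0.05: Fn1 (1.38 ± 0.50, adjusted p = 0.161) and Postn (1.33 ± 0.61, adjusted p = 0.243). For 44 against 5 weeks 0% of all genes passed, and Lox, at 1.06 ± 0.48 (adjusted p = 0.229), was the 1 member under an unadjusted p of 0.05. For 44 against 2 weeks 0% passed as well, and again Lox alone had an unadjusted p under 0.05 (1.04 ± 0.49, adjusted p = 1). The shift in calls between WT and KI described above is therefore not shown to be a difference between the genotypes.

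Markers of stromal and of other cells moved with the same ages. In WT the mean of the 11 fibroblast markers measured stepped from 8.88 ± 0.26 (SD, n = 4) through 7.91 ± 0.44 (n = 5) to 7.03 ± 0.29 (n = 4). In KI it stepped from 8.62 ± 0.21 through 8.20 ± 0.16 to 7.02 ± 0.40 (4 arrays per age). From 2 to 44 weeks 18.0% of all genes tested fell and 13.6% rose in WT, and 15.9% fell and 14.3% rose in KI. Over the same span 7 of the 10 fibroblast markers past the dim limit fell in WT and 6 in KI. Of the 10 mesangial and smooth muscle markers 7 fell and 2 rose in each genotype. Of 11 podocyte markers, 6 rose in WT and 7 in KI over that span, and no podocyte marker fell. Of 8 parietal epithelium markers 6 fell in WT and 5 in KI, and of 3 erythroid markers 2 fell in each. Of 8 leukocyte markers 6 rose and 1 fell in each genotype, and of 23 tubule markers 13 rose in WT and 5 in KI, with 1 lower in each. Of 12 endothelial markers 3 rose and 2 fell in WT, and 1 rose and 2 fell in KI. Beyond the fits with a stromal or tubule marker mean described below, the part of these markers in the differences of the 8 genes was not tested. Col1a1 itself fell by 4.66 ± 0.41 in WT (limma adjusted p = 8.38e-08) and fell by 4.20 ± 0.41 in KI (adjusted p = 6.19e-07). Another fibrillar collagen gene, Col3a1, differed by -4.16 in WT and -3.70 in KI. These falls are of the size seen for Eln, Postn and Smoc2.

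When the mean of the stromal markers of each array was added to the model, the age differences changed by unequal amounts. That mean itself stepped down with age, from 8.92 through 8.11 to 7.61 in WT and from 8.83 through 8.59 to 7.75 in KI. The fit therefore cannot fully separate age from the stromal mean. Over all genes the calls for 44 minus 2 weeks went from 3782 to 867 in WT and from 3614 to 1321 in KI. Over 2 to 44 weeks in WT, Eln still fell by 2.72 ± 0.39 (limma adjusted p = 0.000682), Postn fell by 2.70 ± 0.74 (adjusted p = 0.0318), Lox fell by 2.59 ± 0.67 (adjusted p = 0.0246) and Tnc fell by 2.51 ± 0.72 (adjusted p = 0.0386). The Tnc value was larger than without the covariate, where it was -2.08. Smoc2 stood at -2.98 ± 0.94 (adjusted p = 0.0547), Fn1 at -0.87 ± 0.38 (adjusted p = 0.162) and Fbln5 at 0.14 ± 0.34 (adjusted p = 0.839). In KI the calls that held were those of Eln (-2.53 ± 0.34) and Postn (-2.06 ± 0.65). The calls of the others were lost, with Smoc2 at -2.48 (adjusted p = 0.0552), Tnc at -1.81 (adjusted p = 0.0693) and Lox at -1.57 (adjusted p = 0.0885). Fn1 stood at -0.49 in KI (adjusted p = 0.361) and Fbln5 at 0.21 (adjusted p = 0.697). Within the groups, after each group's mean was removed, Fn1 and Fbln5 followed the fibroblast mean over the 25 arrays with Pearson's r of 0.84 each, Eln with 0.72, Postn with 0.64 and Smoc2 with 0.57, whereas Lox (0.17), Sparc (0.07) and Tnc (-0.06) hardly did. On each array the members and the markers were read from the same RNA, and no test was made of these correlations.

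The 5-week WT arrays differed among themselves in these markers too. Arrays 6 and 10 had fibroblast means of 8.45 and 8.33, and arrays 7, 8 and 9 had 7.65, 7.48 and 7.65; their mesangial and smooth muscle means were 8.66 and 8.50 against 7.49, 7.69 and 7.86. Col1a1 read 10.43 and 10.37 in arrays 6 and 10 and 8.50, 8.68 and 8.12 in arrays 7, 8 and 9. The KI arrays at 5 weeks had mesangial and smooth muscle means from 8.64 to 8.86, 0.74 above WT (exact permutation test, two-sided p = 0.0476, adjusted over 33 marker tests 0.171). With the stromal covariate Fn1 at 5 weeks was -0.05 ± 0.22 in KI minus WT, where it had been 0.80. The plot of marker means shows Col1a1 and both stromal lists beside the podocyte list.

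**Figure D4:**
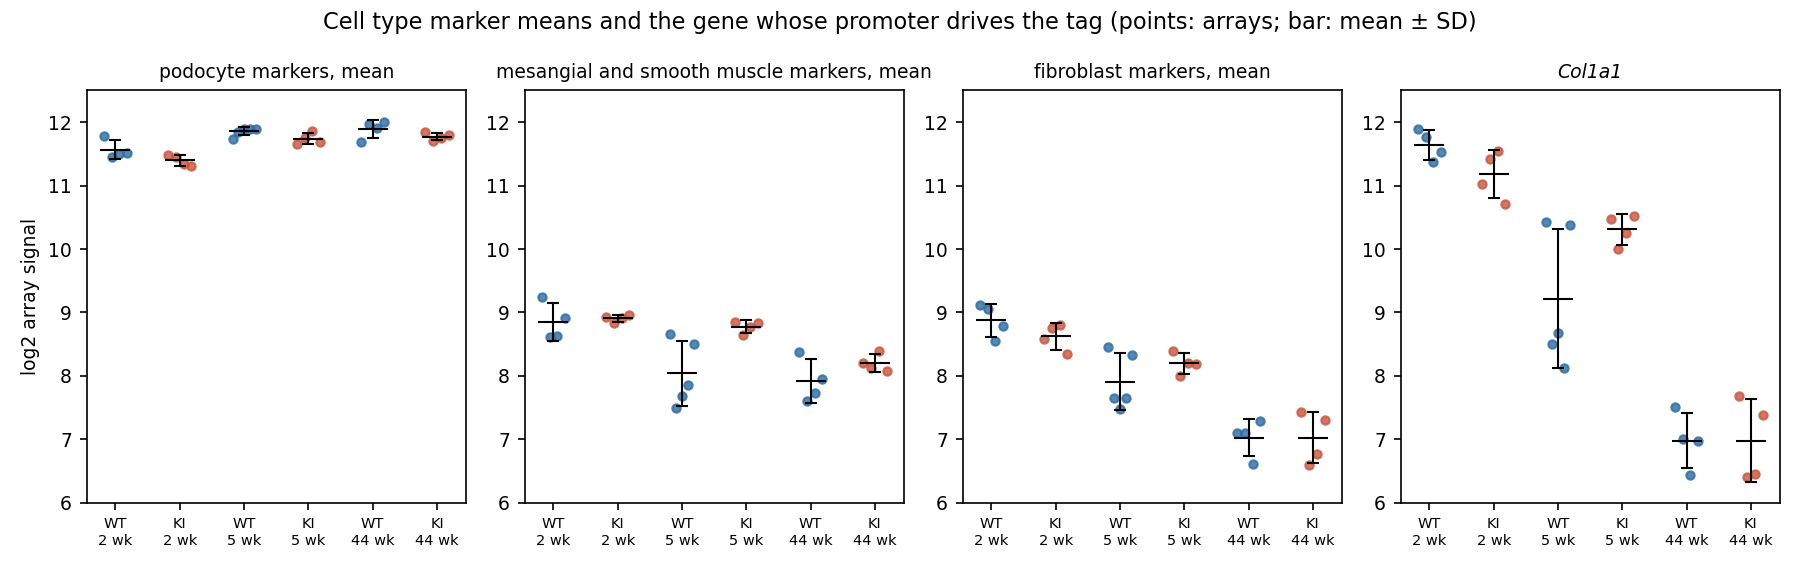
Mean log2 signal of the podocyte, mesangial and smooth muscle and fibroblast markers, and the log2 signal of Col1a1 (vertical axes), in the 6 groups (horizontal axis); points are arrays and bars mean ± SD. Podocyte means stay between 11.31 and 12.01, fibroblast means step down from 8.88 to 7.03 in WT, and at 5 weeks WT arrays 7, 8 and 9 lie apart from arrays 6 and 10.

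Other probe sets of the same genes were looked at where the array had them. The second Eln probe set went from 6.52 to 5.49 in WT between 2 and 44 weeks, the second Lox one from 7.71 to 5.60 and the second Smoc2 one from 6.69 to 3.70, all in the direction of the brighter ones. On these second sets some calls were lost: Eln stood at -0.27 for WT at 44 minus 5 weeks (limma adjusted p = 0.177) and -0.29 for KI at 5 minus 2 weeks (adjusted p = 0.218), and Lox at -0.39 for WT at 44 minus 5 weeks (adjusted p = 0.43). The second Fbln5 probe set was dim, at group means from 3.54 to 4.94, and the third Lox and second Tnc probe sets lay near the floor of the array, between 2.26 and 2.88 on every array. For Tnc that second set gave 0.074 for WT at 5 minus 2 weeks, and for Fbln5 it gave 0.020 for KI at 44 minus 5 weeks, each opposite in sign to the brighter set. The second Sparc probe set had group means from 12.14 to 12.43, so both are near the top of the scale. On it WT went from 12.43 at 2 weeks to 12.14 at 5 weeks, where KI stood at 12.38. Both of these differences were opposite in sign to those of the brighter set. Postn and Fn1 had 1 probe set each.

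Other genes of elastic fibres and of matricellular proteins showed how widely the pattern held. Of these lists Mfap5 is also a fibroblast marker, Itga8 a mesangial and Npnt a podocyte marker. Of 18 tested elastic fibre genes, 9 fell and 1 rose in WT from 2 to 44 weeks, with a median of -1.24 against -0.03 over all genes, and 10 fell and 1 rose in KI. The shares over all genes were 18.0% lower and 13.6% higher in WT, and 15.9% lower and 14.3% higher in KI. Mfap4, a microfibril-associated protein, differed by -3.86 ± 0.47 in WT and -3.74 ± 0.47 in KI. Mfap2, which binds fibrillin, differed by -2.79 and -2.55, and Loxl1, the lysyl oxidase relative that acts on elastin with fibulin-5, by -2.49 and -2.42 (limma adjusted p of 7.74e-06 or less in all these). Efemp1, which encodes fibulin-3, was the gene that rose. It went from 8.79 at 2 weeks to 10.05 at 44 weeks in WT and from 9.00 to 10.10 in KI.

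Of 19 tested matricellular and adhesive genes, 13 changed in WT and 11 in KI over the same span, every one of them downwards, with medians of -1.25 and -0.88. Frem2 differed by -3.12 in WT and -3.13 in KI, and Frem1 by -2.68 and -2.37; both encode proteins that anchor epithelia to the basement membrane in development. Fstl1, a SPARC relative, differed by -2.02 and -1.68. From 2 to 5 weeks, 13 of the 18 elastic fibre and 12 of the 19 matricellular genes fell in WT, and 3 and 5 in KI. Of all genes 21.7% fell in WT and 8.29% in KI. Without WT arrays 7, 8 and 9, so with arrays 6 and 10 at 5 weeks, the WT calls over all genes, in either direction, went from 4053 to 991. The related genes were not counted without those arrays, and the WT and KI counts were not tested against each other. Of 12 receptor genes tested, 2 fell and 2 rose in WT from 2 to 44 weeks, and 2 fell and none rose in KI. Of all genes 18.0% fell and 13.6% rose in WT over that span, and 15.9% fell and 14.3% rose in KI, so the receptor counts lay near these shares. Itga8, the alpha chain of an integrin that binds fibronectin and tenascin, differed by -1.88 ± 0.31 in WT and -1.11 ± 0.31 in KI. Itga9, the alpha chain of another tenascin receptor, differed by -2.03 ± 0.35 and -1.30 ± 0.35.

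**Figure D5:**
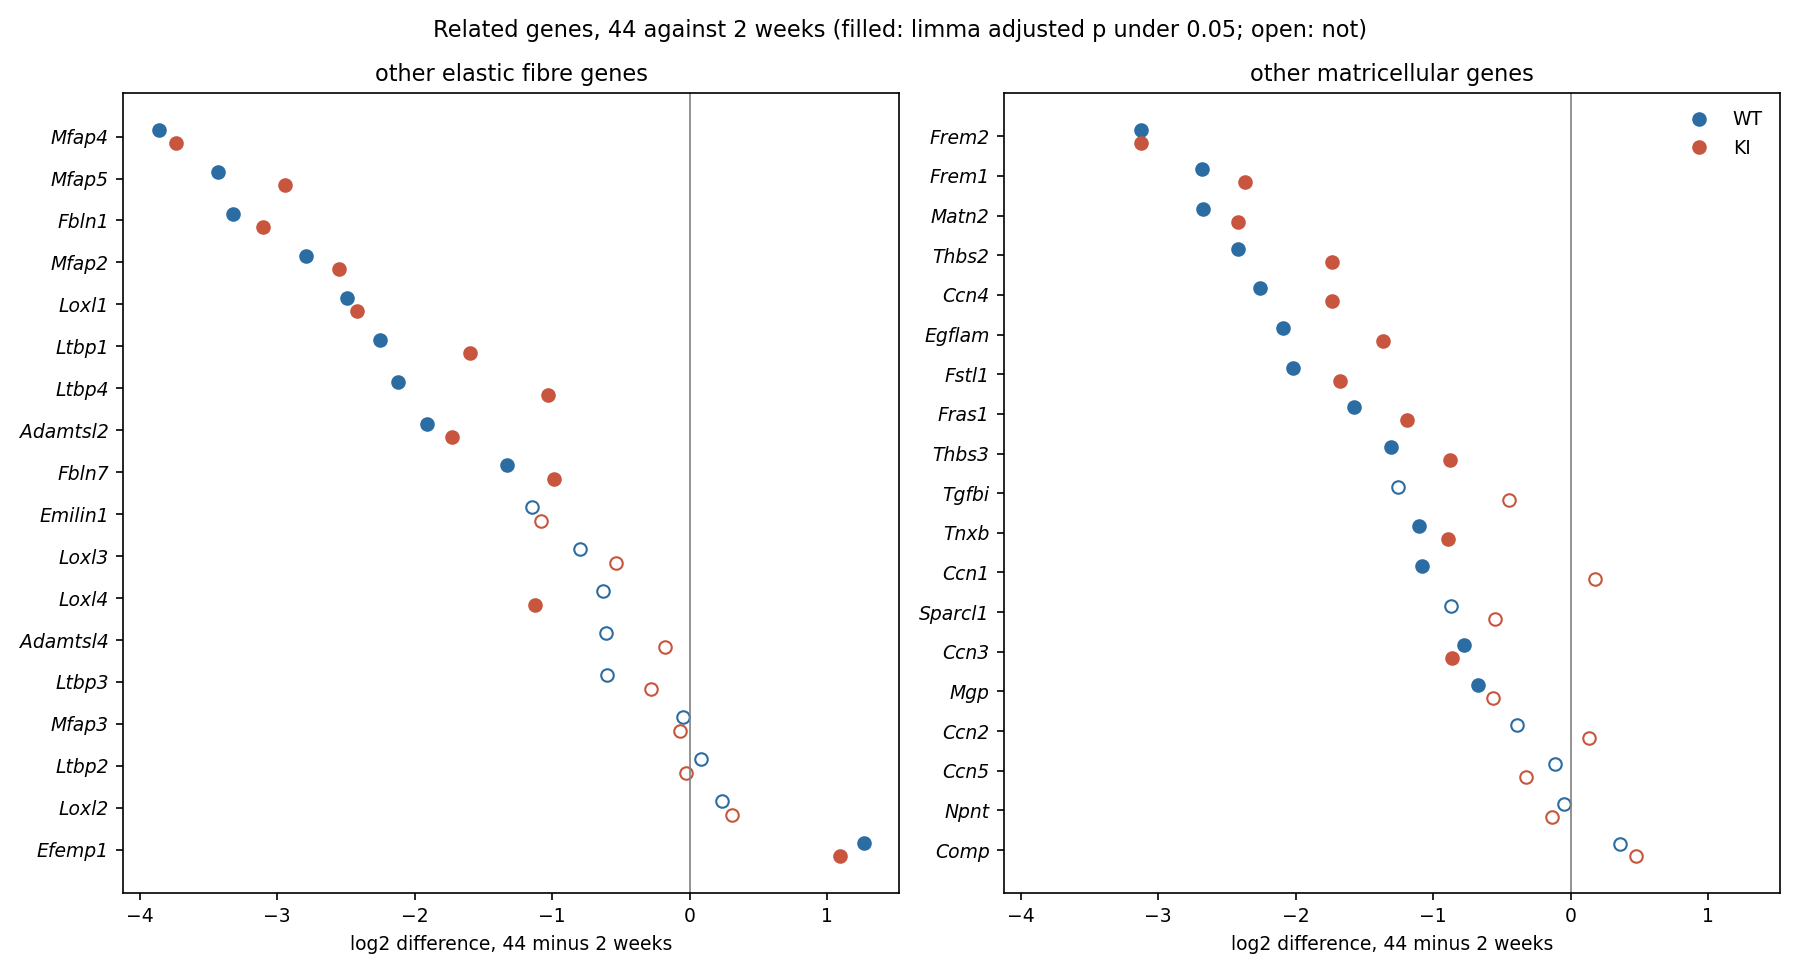
Log2 difference, 44 minus 2 weeks (horizontal axis), of the other tested elastic fibre and matricellular genes (vertical axis), in WT (blue) and KI (red); filled points had a limma adjusted p under 0.05. Most filled points lie left of 0, down to -3.86 for Mfap4 in WT, and Efemp1 is the gene with filled points on the right.

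At 5 weeks some of these related genes differed between the genotypes although none of the 8 members passed. Emilin1, whose product sits between elastin and microfibrils, was at 8.83 in KI and 7.00 in WT, a difference of 1.83 ± 0.42 (limma adjusted p = 0.00626). Adamtsl2, a fibrillin-binding protein, was higher by 1.17 ± 0.35 (adjusted p = 0.0237), and the matricellular genes Comp, Tnxb and Mgp were higher by 0.97, 0.89 and 0.75. Mfap3 was lower by 0.49 ± 0.17 (adjusted p = 0.0458). Among the receptors, Stab1, an endocytic receptor that clears SPARC, was higher in KI by 1.20 ± 0.29 (adjusted p = 0.00808) and Itgav was lower by 0.26 ± 0.09 (adjusted p = 0.0366). These are 3 of 18, 3 of 19 and 2 of 12 genes, beside the 22.0% of all genes that passed at that age. Without WT arrays 7, 8 and 9, so with WT arrays 6 and 10 alone, only 1 gene of all passed. The endothelial marker mean was also higher in KI, at 7.19 against 6.34 in the 5-week WT mice (exact permutation test, two-sided p = 0.0159, adjusted over 33 tests 0.105); the part of endothelial cells in the Stab1 difference was not tested.

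For each member the genes whose deviations from the group means were most alike over the 25 arrays were read off, out of 11967 others, as a description. Eln was most like Pdgfrl (Pearson's r 0.86) and Ctsk (0.79). Fbln5 was most like Olfml3 and Lama2 (0.91 each), and Fn1 was most like Col15a1 (0.92). Postn came closest to Mmp2 (0.83), Smoc2 to Snai2 (0.80) and Lox to Lpar1 (0.84) and Ccn2 (0.83). Tnc was nearest to Cpe (0.87) and Sparc to Cst3 (0.76).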

How the data were processed

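Polysomal RNA from tagged kidney podocytes was amplified with the NuGEN WT-Ovation kit, biotin-labelled and hybridised, per the labels' protocols, to an Affymetrix mouse array with perfect-match probes. The authors deposited log2 values, 1 per probe set and array, in 25 columns. The log2 scale is read from their range, 1.86 to 13.62; no source used here gives the summarization and normalization method. Arrays have no read depth, and their number limits the precision.

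Of 45141 probe sets, 28898 had 1 gene symbol in the platform annotation, 551 had several and 15692 were not in it. Symbols were updated through Entrez identifiers. Per gene the probe set with the highest mean was kept, and the dimmest 30% of genes (mean under 4.60) were dropped. Limma 3.58.1 in R 4.3.3 fitted 6 group means (19 residual degrees of freedom), with a threshold of 0.05 on Benjamini-Hochberg adjusted p. Standard errors and 95% intervals are limma's moderated ones. The limma fit of the comparisons between pairs of groups was tested on simulated data, and the other steps were not. Marker means were compared with exact permutation tests.

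The members, the gene lists, the markers and the omission of WT arrays 7, 8 and 9 were chosen with earlier results of these data known. All members are named; up to 3 genes of each list are named per comparison, those with the smallest p that passed. The most similar genes are the first of the 3 highest correlations. Alternatives were quantile normalization, median centring, other filters, the mean of all probe sets, other probe sets, array weights, only the arrays compared, covariates (tubule markers, stromal markers, sex read from Y-linked signal) and each array left out.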

Additional observations from a re-analysis of the deposited data

Results flagged for a closer look

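In 2 of the 48 groups of arrays checked (8 genes in 6 groups), 1 array stood far from the others, and chance does this in about 1 in 20 groups. Both were Fbln5 at 44 weeks. WT array 17 read 8.43, where the other 3 WT arrays read 9.90 to 10.11. KI array 32 read 9.57, where the other 3 KI arrays read 9.94 to 10.01. The fibroblast marker mean was 6.61 in WT array 17 and 6.60 in KI array 32, the lowest of each group. The part of these markers in the Fbln5 values was not tested. Without WT array 17 the Fbln5 difference for WT at 44 minus 2 weeks was -1.57 and it still passed.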

How the results depend on the processing

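No paired analysis was possible because the array numbers in the labels are unique across groups. At 2 and 44 weeks, and in the average over ages, no alternative gave a member that differed between genotypes. At 5 weeks array weights gave 3 (Fbln5, Sparc and Fn1), beside 4821 calls over all genes, where the main fit had 2638. Leaving out 1 array gave 0 to 1, beside 1386 to 4077 calls over all genes. The member counts were not tested against these totals, so they do not set the members apart from other genes. With the stromal marker covariate 3 members fell for WT at 5 minus 2 weeks, 1 for WT at 44 minus 5 and 4 for WT at 44 minus 2. In KI 0 fell at 44 minus 5 and 2 at 44 minus 2. Calls over all genes, in either direction, went from 4053 to 820, 2408 to 2812, 3782 to 867, 2005 to 349 and 3614 to 1321 in the same order. The calls lost in WT included Lox (-1.49), Tnc (-1.38) and Smoc2 (-2.23) at 5 minus 2 weeks and Lox (-1.10) at 44 minus 5, each still lower at the older age. For WT at 44 minus 5 weeks, where 2 members fell, quantile normalization gave 4, median centring 5 and array weights 4. The sex covariate gave 4, the tubule covariate 1 and omission of WT arrays 7, 8 and 9, which left arrays 6 and 10, gave 5. Calls over all genes, 2408 in the main fit, were 2409, 2437, 3762, 2511, 1011 and 851 in the same order. Without 1 array 1 to 5 members fell, beside 1629 to 3103 calls over all genes. For KI at 44 minus 5 weeks 2 to 4 members fell without 1 array, beside 1239 to 1663 calls. Called values that turned sign came from the stromal covariate, for Fbln5 in WT at 5 minus 2 weeks (0.10), WT at 44 minus 2 (0.14), KI at 44 minus 5 (0.33) and KI at 44 minus 2 (0.21) and for Fn1 in KI at 44 minus 5 (0.10), and from dim probe sets, for Fbln5 in KI at 44 minus 5 (0.020) and Tnc in WT at 5 minus 2 (0.074). Of values that passed neither way, 53 under other alternatives and 21 with 1 array left out turned sign. The cause was not tested. The fall of 7 members from 2 to 44 weeks held without any single array in both genotypes. Sparc lies near the top of the scale, and Postn near the dim limit of 4.60 at 44 weeks, which limits what either can show. Smoc2 came near that limit too, at 4.64 and 4.82 in WT 44-week arrays 15 and 17. Its lowest percentile on an array was 45.03, beside 43.13 for Postn.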
